A study of Mus musculus with 4 samples.

Results

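The transcription factor AP-1, a dimer of FOS and JUN family proteins, binds a 7-bp DNA sequence, and the accessible regions described here are those that lie away from gene starts and hold that sequence near their midpoint. The members were the regions of the count table whose midpoint lay over 1 kb from every start of a protein-coding gene and whose central 200 bp held the exact consensus TGACTCA, or TGAGTCA when it is read on the other strand. Of 255864 regions, 228248 were distal in this sense, and 45487 of these held the consensus. The members were therefore 17.8% of all regions and 19.9% of the distal regions, and the other 182761 distal regions served for comparison. Over all regions, near starts or not, 18.6% held the consensus in their central 200 bp.

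The values come from ATAC-seq, where Tn5 transposase inserts adapters into open chromatin and the number of reads on a region follows how accessible it is. Primary osteoblasts, the bone-forming cells, were taken from 3-day-old C57BL/6 mice that were WT or TCKO, and the study isolated them from the parietal bones of the calvaria. In TCKO mice the Prx1-Cre recombinase, which is active in limb and cranial mesenchyme, deletes the floxed genes of all members of the TET family, *Tet1*, *Tet2* and *Tet3*. The cells are a primary culture, so cells in which the recombinase was never active could remain among them, and the loss of the TET genes was not checked here. The labels list 2 ATAC-seq samples per genotype, and 1 protocol text gives 3 repeats, a number that the study's methods state for RNA-seq. The deposited counts hold 1 merged column per genotype. The merged columns held 56898657 counts in WT and 34608167 in TCKO. All differences below compare these 2 merged libraries, have no replicate check and carry no p-value, and the 95% intervals are of the Wilson kind and hold counting error alone, since the reads carry no molecular identifiers.

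AP-1 dimers are built from the FOS, JUN, ATF and BATF families of leucine zipper proteins, and they respond to growth factors, cytokines and mechanical load. In mesenchymal cells their sites are a common feature of active enhancers, the distal elements that regulate genes from afar. In bone, FOS and FOSL1 are known regulators of osteoblasts and osteoclasts. TET enzymes oxidise 5-methylcytosine, the methylated base found mostly in CpG dinucleotides, and the AP-1 consensus itself holds no CpG. Thymine and 5-methylcytosine both carry a methyl group at the same position of the ring.

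The following sequences show the sites in their setting, from the GRCm38 genome on its plus strand, with the consensus in capitals. Members with the highest and the lowest ratios of TCKO to WT are shown because they mark the ends of the range.
Intron of Spock3, chr8:63335369-63335429: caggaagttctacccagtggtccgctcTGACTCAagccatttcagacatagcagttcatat
Upstream of Nkain2, chr10:32984984-32985044: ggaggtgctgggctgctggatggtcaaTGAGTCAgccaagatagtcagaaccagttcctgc
Intron of Grm8, chr6:27542998-27543038: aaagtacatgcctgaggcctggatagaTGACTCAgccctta
Intron of Rgs6, chr12:82860819-82860864: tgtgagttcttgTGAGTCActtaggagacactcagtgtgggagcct
Intron of Hnrnpll, chr17:80033145-80033205: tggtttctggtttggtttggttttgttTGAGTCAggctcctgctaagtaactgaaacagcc
Near Epha7, chr4:29119693-29119753: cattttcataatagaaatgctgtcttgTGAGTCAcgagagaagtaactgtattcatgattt

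Members near bone genes are shown because osteoblasts are the labelled cell type, with the site of the *Runx2* intron, 2 sites upstream of *Col1a1* and 3 sites near *Phex*.
Intron of Runx2, chr17:44500634-44500685: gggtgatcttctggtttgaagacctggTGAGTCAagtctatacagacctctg
Upstream of Col1a1, chr11:94870092-94870291: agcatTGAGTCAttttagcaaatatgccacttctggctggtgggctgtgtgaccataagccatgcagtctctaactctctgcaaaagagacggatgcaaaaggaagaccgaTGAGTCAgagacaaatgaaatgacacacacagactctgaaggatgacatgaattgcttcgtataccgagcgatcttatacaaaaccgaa
Near Phex, chrX:157029031-157029230: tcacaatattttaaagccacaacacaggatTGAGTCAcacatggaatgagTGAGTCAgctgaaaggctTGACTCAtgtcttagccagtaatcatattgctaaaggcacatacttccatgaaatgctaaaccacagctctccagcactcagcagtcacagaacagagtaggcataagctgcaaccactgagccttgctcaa

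The members with most sites are shown because their sites recur within a repeated unit, so that the copies are not independent of each other.
Intron of Spata17, chr1:187171928-187172127: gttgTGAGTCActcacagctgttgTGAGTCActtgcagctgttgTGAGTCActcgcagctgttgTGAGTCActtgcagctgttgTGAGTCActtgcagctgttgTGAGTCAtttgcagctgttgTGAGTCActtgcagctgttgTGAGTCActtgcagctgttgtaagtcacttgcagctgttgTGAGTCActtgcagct
Near Dok5, chr2:171290745-171290944: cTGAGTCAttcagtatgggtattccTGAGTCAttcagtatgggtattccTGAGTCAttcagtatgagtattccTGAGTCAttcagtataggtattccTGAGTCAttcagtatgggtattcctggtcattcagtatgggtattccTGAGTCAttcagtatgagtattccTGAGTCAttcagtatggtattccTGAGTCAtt

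A related word, in which the outer T of the consensus is a C so that the site begins with CpG, is described further on. It is shown here from regions that do not hold the consensus, again in capitals.
Near Foxf2, chr13:31639663-31639723: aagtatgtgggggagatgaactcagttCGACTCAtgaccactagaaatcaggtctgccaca
Intron of Lin7a, chr10:107417809-107417865: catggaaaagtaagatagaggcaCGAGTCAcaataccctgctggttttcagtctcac
Intron of Auts2, chr5:132461357-132461402: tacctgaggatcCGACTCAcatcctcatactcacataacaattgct
Intron of Pxmp2, chr5:110275119-110275179: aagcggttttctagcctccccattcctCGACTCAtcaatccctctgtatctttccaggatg

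The consensus marked the middle of accessible regions. In bins of 20 bp there were 31.8 consensus words per 1000 distal regions at the midpoint, against 3.65 at over 400 bp from it, a ratio of 8.71. A word of the same letters in another order, TCACTGA or TCAGTGA, reached 5.96 at the midpoint and 4.40 far from it, a ratio of 1.35. The summits called by the study, which the choice of members did not use, lay close to the site. In members with 1 site the median distance from site to summit was 28 bp in WT and 28 bp in TCKO, and 46.5% and 46.2% of summits lay within 25 bp. For the reordered word the median distances were 59 bp and 60 bp, with 21.1% and 21.6% within 25 bp. The distance of the summits from the site was thus alike in both genotypes. Where both genotypes had a summit in the same member with 1 site, the pair lay a median of 18 bp apart, against 20 bp in other distal regions.

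**Figure D1:**
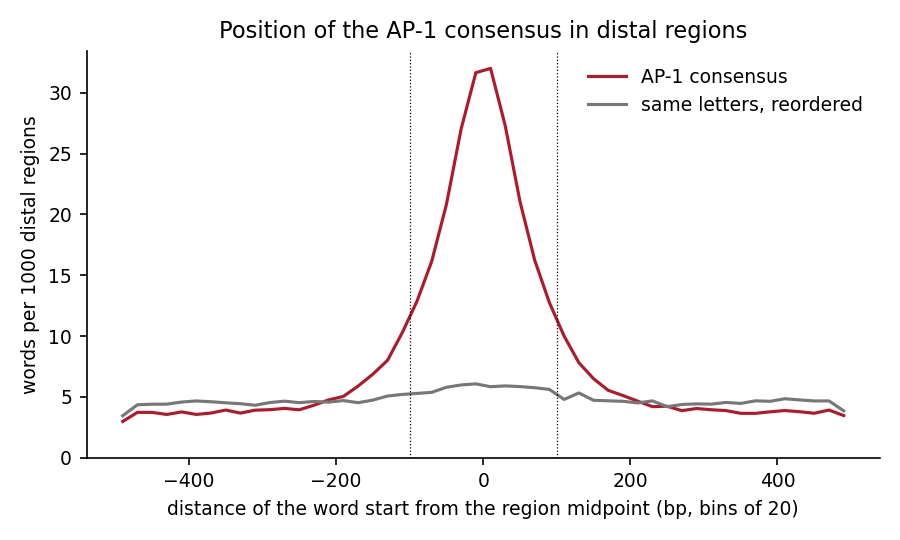
Number of words per 1000 distal regions (vertical axis) by distance from the midpoint of the region in bp (horizontal axis, bins of 20 bp), for the AP-1 consensus and for the same letters in another order. The dotted lines bound the central 200 bp that were searched for members, and the consensus is 8.71 times denser at the midpoint than beyond 400 bp, against 1.35 times for the reordered word.

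Members had higher ratios of TCKO to WT than other distal regions. TCKO counts were multiplied by 1.64 so that both totals matched, 1 was added to each count, and the ratio was put on the log2 scale. Its median was 0.45 in members, with quartiles of 0.01 and 0.94, and 0.02 in other distal regions, with quartiles of -0.38 and 0.47. The median counts, before scaling, were 76 in WT and 68 in TCKO in members, against 79 and 52 in other distal regions. The members took 13.4% (13.41% to 13.43%) of the WT counts and 16.2% (16.14% to 16.17%) of the TCKO counts. Of the members, 10279 (22.6%) were at least 2-fold higher in TCKO and 598 (1.31%) at least 2-fold lower, where the shares over all regions were 12.3% and 4.51%. Among other distal regions 10.99% were higher and 5.74% lower. Distal regions with the reordered word and no consensus had a median of 0.10, with 14.7% higher and 4.95% lower. Many of these calls rest on few counts, and the interval lay wholly past 2-fold in 3215 members (7.07%) on the higher side and in 73 (0.16%) on the lower side, against 3.43% and 0.839% of other distal regions.

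The sign of the ratio depended on the scaling. The gap between members and other distal regions could hardly do so, since a factor moves all log2 ratios by nearly the same amount. When depth was read from the lowest local background in the peak lists (the peak caller factor, 1.08), the factor was lower by 0.61 on the log2 scale, the median of all regions moved from 0.06 to -0.54, and the median of members was -0.16 against -0.58 in other distal regions. Then 6.62% of members were at least 2-fold higher and 8.74% lower, where the shares over all regions were 3.91% and 19.9%. The members' median exceeded that of other distal regions by 0.43 with each of these factors. In what follows a log2 ratio refers to the total-count factor, and a gap to other distal regions hardly moves with the factor.

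The peak calls are a second readout of the same libraries. Of the members, 8664 (19.05%) were called in WT only, 6909 (15.2%) in TCKO only and 29914 (65.8%) in both. Other distal regions were called in WT only in 38.4%, in TCKO only in 9.85% and in both in 51.7%. The share called in WT only was thus lower in members and the share called in TCKO only higher. The fold enrichment, which sets the pileup at a summit against the background around it, was lower in TCKO by a median of 0.08 on the log2 scale in members called in both, and by 0.23 in other distal regions.

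Members with 2 or more sites had higher ratios than members with 1. The median was 0.43 in the 42309 members with 1 site, 0.62 in the 3006 with 2 sites and 0.52 in the 172 with 3 or more. Of members with 1 site, 22.1% were at least 2-fold higher in TCKO and 1.39% lower. Of the 3178 with 2 or more sites, 28.7% were higher and 0.25% lower, with a median of 0.61 that exceeded that of 1 site by 0.18. The share higher was 29.2% with 2 sites and 20.9% with 3 or more, so it did not grow beyond 2 sites. With the peak caller factor the medians were 0.0066 for 2 or more sites and -0.17 for 1 site, with 2.96% and 9.17% at least 2-fold lower. The share lower over all regions was 19.9% with that factor. Members with 2 or more sites were also called in WT only in 8.34%, against 19.9% with 1 site, in TCKO only in 14.7%, against 15.2%, and in both genotypes in 76.9%, against 64.9%.

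**Figure D2:**
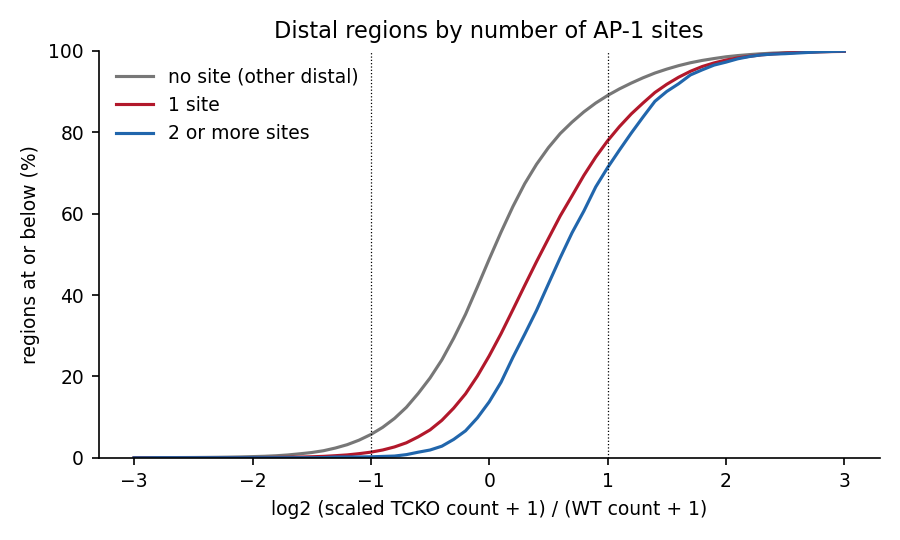
Cumulative share of distal regions in percent (vertical axis) by log2 ratio of TCKO to WT scaled by total count (horizontal axis), for regions with no site, 1 site and 2 or more sites. The dotted lines mark 2-fold. The curves shift to the right from no site (median 0.02) over 1 site (0.43) to 2 or more (0.61), and with the peak caller factor all lie further left by about 0.61, so that the medians of no site and of 1 site are below 0.

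The step from 1 to 2 or more sites was present at each depth and width. All regions were put into 5 equal depth classes by summed count, and 2 or more sites exceeded 1 site by 0.46 in the class with fewest counts and by 0.25, 0.27, 0.26 and 0.15 in the next 4. Among narrow regions of 98 to 178 bp the medians were 0.58 with 1 site and 0.88 with 2 or more. Among regions of 179 to 311 bp they were 0.51 and 0.74, and among wider regions 0.25 and 0.43. The step was smaller, 0.04, when the whole region was searched in place of its central 200 bp. That search adds sites far from the midpoint in wide regions, and drops sites outside the ends of regions narrower than 200 bp. Sites close to the midpoint also went with higher ratios. Among members with 1 site the median was 0.49 with the site within 20 bp of the midpoint, 0.45 at 21 to 40 bp, 0.42 at 41 to 60 bp, 0.38 at 61 to 80 bp and 0.30 at 81 to 100 bp, while the median width of the regions went from 188 bp to 330 bp over the same steps.

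Spacing and orientation of 2 sites went with small differences. The medians ran from 0.58 to 0.67 over gaps of 0 to 10, 11 to 30, 31 to 60, 61 to 100 and over 100 bp, with no order. Pairs on the same strand (1705 members) had a median of 0.63 and pairs on opposite strands (1301) of 0.61. Of the members 8 had 6 or more sites. The *Spata17* intron with 9 sites held 49 WT and 35 TCKO counts, a log2 ratio of 0.23 (-0.39 to 0.85). The region near *Dok5*, which encodes a docking protein of tyrosine kinases, had 8 sites and held 71 and 72 counts, a ratio of 0.73 (0.27 to 1.21). An intron of *Eif2ak4*, the kinase GCN2, had 6 sites and 78 counts in each genotype, a ratio of 0.71 (0.27 to 1.17). A member in *Tmem108* with 6 sites held 113 and 75 counts, a ratio of 0.12 (-0.29 to 0.55). An exon of *Dera* with 7 sites held 67 and 57 counts, a ratio of 0.48 (-0.02 to 0.99). None of these 5 was past 2-fold.

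The median ratio was lower with each step of CpG content. It was 0.63 in the 9824 members with no CpG in their central 200 bp, 0.53 with 1, 0.43 with 2, 0.31 with 3 to 4, 0.13 with 5 to 7 and -0.02 in the 519 members with 8 or more. From the first to the last of these steps the share at least 2-fold higher went from 29.7% to 5.78%, and the share lower from 0.682% to 4.24%. Other distal regions followed the same order at a lower level, from 0.19 with no CpG to -0.15 with 5 to 7, and stood at -0.06 with 8 or more. The gap between members and other distal regions was 0.43 with no CpG, 0.42 with 1, 0.41 with 2, 0.37 with 3 to 4, 0.28 with 5 to 7 and 0.05 with 8 or more. The site thus went with a higher ratio in CpG-poor regions, and in the CpG-densest regions the medians of both groups were close. Members held fewer CpG than other distal regions, with a mean of 1.94 against 2.56.

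**Figure D3:**
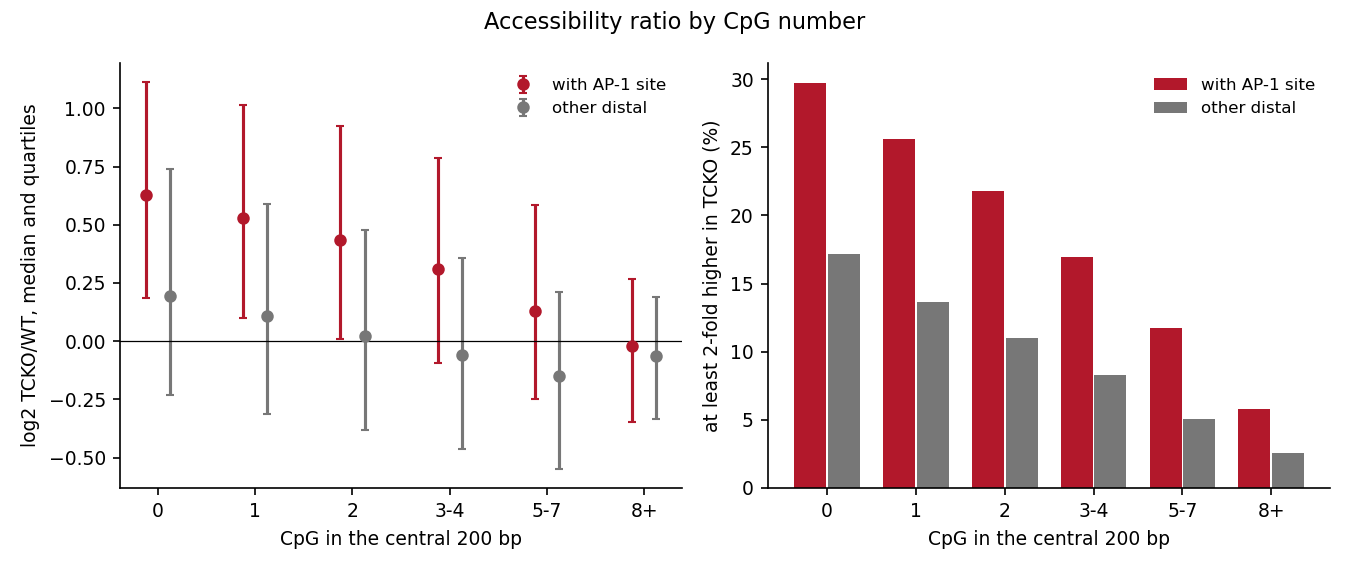
Left, median log2 ratio of TCKO to WT scaled by total count, with bars from the lower to the upper quartile, by number of CpG in the central 200 bp, for members and other distal regions. Right, the share of regions at least 2-fold higher in TCKO in percent. Members lie above other distal regions by 0.43 with no CpG and by 0.05 with 8 or more, and with the peak caller factor the medians move down to 0.02 in members with no CpG and -0.63 in members with 8 or more.

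The order was present within the 3 depth classes examined (lowest, middle and highest), except at the last step in the highest class. In the lowest class the medians of members went from 0.70 with no CpG to -0.21 with 8 or more. In the middle class the medians of members were 0.71, 0.63, 0.55, 0.48, 0.25 and -0.03 over the same 6 steps of CpG number. In the highest class they were 0.32, 0.26, 0.18, 0.07, -0.05 and -0.04. The step from 1 to 2 or more sites had no order from no CpG up to 3 to 4. It was smaller at 5 to 7 and at 8 or more, where 221 and 23 members had 2 or more sites. The medians were 0.61 and 0.80 at no CpG, 0.52 and 0.63 at 1, 0.42 and 0.59 at 2, 0.30 and 0.49 at 3 to 4, 0.13 and 0.18 at 5 to 7 and -0.02 and -0.0026 at 8 or more. At 5 to 7 CpG the share at least 2-fold higher was 11.8% with 1 site and 10.9% with 2 or more. How far the only CpG of a member lay from its site went with medians between 0.51 and 0.54 from 0 to over 60 bp.

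Words near the consensus differed in their ratios. Among distal regions without the consensus, each of the 19 words that differ from it at 1 base was searched, with positions counted from 1 at the 5′ end of TGACTCA. Of these words, 13 without a CpG had medians between 0.04 and 0.16, near the other distal regions. The words G2T, C4A and C6A had medians of 0.29, 0.37 and 0.38. C4A is the word TGAATCA, and C6A is TGACTAA. Substitutions that create a CpG stood at opposite ends. T1C and A7G, which put the CpG at an outer edge of the site as CGACTCA or TGACTCG, had medians of 0.52 in 1730 regions and 0.50 in 2455 regions, above the 0.45 of the exact consensus. T5G, which puts it inside the second arm as TGACGCA, had a median of -0.08 in 1269 regions, with 7.57% at least 2-fold higher and 9.69% lower. The CRE consensus TGACGTCA, the CREB and ATF site that holds a CpG at its centre, had a median of 0.04 in 648 regions. Regions with T5G held a mean of 4.29 CpG and regions with the CRE 4.46, against 3.64 with T1C and 3.66 with A7G. Other distal regions with 3 to 4 and 5 to 7 CpG had medians of -0.06 and -0.15, with 7.03% and 8.97% at least 2-fold lower. The values of T5G were thus near those of other distal regions of similar CpG number.

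**Figure D4:**
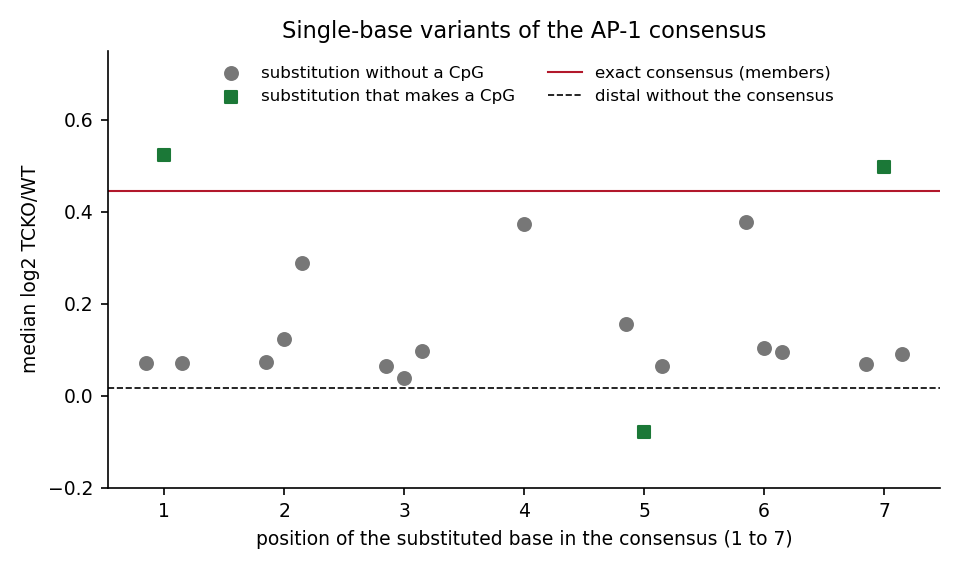
Median log2 ratio of TCKO to WT scaled by total count (vertical axis) of distal regions that lack the consensus and hold a word differing from it at 1 base, by the position of that base (horizontal axis). Squares mark substitutions that make a CpG, the solid line the members (0.45) and the dashed line distal regions without the consensus (0.02). The CpG words at both ends lie at 0.52 and 0.50 and the one at position 5 at -0.08, and with the peak caller factor all values and both lines move down by about 0.61.

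The words with a CpG at the edge were pooled, and the 3 other raised words set apart, after these values had been seen. The CpG-edged words were held by 2.20% of all regions and by 4145 distal regions without the consensus, of which 28.9% were at least 2-fold higher in TCKO and 2.12% lower, with a median of 0.50. With the peak caller factor the median was -0.10, with 9.94% higher and 10.2% lower. Over all regions the shares higher and lower were 12.3% and 4.51% with the total-count factor, and 3.91% and 19.9% with the peak caller factor. Setting aside those with G2T, C4A or C6A left 3562 regions with a median of 0.45, against -0.04 in the 149187 distal regions with none of these words. This gap of 0.49 was 0.48 with the loess fit and 0.50 with the GC bins, and the other scalings could hardly move it. In regions with the same number of CpG, the median was 0.76 for the CpG-edged word, 0.53 for the consensus and 0.03 for none of the words with 1 CpG. With 2 CpG the medians were 0.65, 0.43 and -0.04, and with 3 to 4 they were 0.51, 0.31 and -0.11. With 5 to 7 CpG they were 0.17, 0.13 and -0.18, and with 8 or more 0.0024, -0.02 and -0.07. The number includes the CpG of the edged word itself, which the consensus lacks. Members with no CpG had a median of 0.63, against the 0.76 of the CpG-edged word with 1 CpG. At 1 CpG the CpG-edged regions also held fewer WT counts than members, with medians of 54 and 68. Within the 5 depth classes, from fewest to most counts, the medians of the CpG-edged regions were 0.50, 0.68, 0.56, 0.41 and 0.07, against 0.50, 0.64, 0.57, 0.42 and 0.16 in members. The CpG-edged word thus stood above the consensus at 1 to 4 CpG and by less at 5 to 7. At equal depth it was close to the consensus in the 4 lower classes and below it in the highest. The 83 regions with 2 or more such words had a median of 0.94, with 48.2% higher and 0 lower, while 231 regions with a CpG at both ends of 1 word had a median of -0.0056. Members that also held the CpG-edged word (797) had a median of 0.75, against 0.44 in the other members.

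The distance to the summits differed between the genotypes for this word, and less so where the same regions were compared. In regions with 1 CpG-edged word the median distance from word to summit was 46 bp in WT and 38 bp in TCKO, with 30.7% and 35.8% of summits within 25 bp. These medians are over partly different regions. In the 1984 regions with a summit in both genotypes they were 46 bp in WT and 41 bp in TCKO, with 31.1% and 34.0% within 25 bp. Regions called in TCKO only had a median distance of 32.5 bp and regions called in WT only of 48 bp, whereas members with 1 site had 28 bp and 30 bp. No methylation values were used here, so the methylation of these words was not tested.

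The CpG-edged regions printed above were 4 of the 5 with the highest ratios among those with 200 counts or more in either genotype, the remaining one being an intron of *Prpf8*, a core protein of the spliceosome (91 and 216 counts, 1.95). All 5 passed this minimum through their TCKO counts alone. The region near *Foxf2*, a forkhead factor of craniofacial mesenchyme, held 93 WT and 239 TCKO counts, a log2 ratio of 2.07 (1.73 to 2.42). The region in an intron of *Lin7a*, a scaffold protein of cell junctions, held 94 and 240 counts, a ratio of 2.06 (1.73 to 2.41). In *Auts2*, which encodes a regulator of transcription, the intronic region held 97 and 230 counts, a ratio of 1.95 (1.62 to 2.30), and in *Pxmp2*, a peroxisomal membrane protein, 89 and 205 counts, a ratio of 1.91 (1.56 to 2.28).

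Bases and motifs around the site went with smaller differences. With the site read as TGACTCA, A before it and A after it, the median was 0.54 in 1703 members, and with T before and A after it was 0.22 in 345 members, the ends of the 16 combinations. Where the bases GC stood directly before or after the site so read, the median was 0.36, and 0.44 elsewhere. Sites in soft-masked repeats had a median of 0.48, against 0.42 outside. The Runt motif TGTGGT, bound by RUNX2, was found in 20.5% of members and 24.0% of other distal regions (22.2% of all regions), and members with and without it had medians of 0.44 and 0.45. The TEAD motif CATTCC was found in 15.5% of members and 17.5% of other distal regions (16.3% of all), with medians of 0.45 with it and 0.44 without it. The E-box CAGCTG (14.96% of members, 15.6% of all regions) and the homeobox motif TAATTA (2.59% and 2.47%) had medians of 0.42 and 0.39 with the motif. The palindrome of the NFI family was found in 8 members. A match is a sequence only, searched on both strands, and says nothing of binding.

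Position relative to genes was examined next. Of the members, 54.0% were intergenic, 43.4% lay in introns and 2.57% in exons of protein-coding genes, with medians of 0.47, 0.42 and 0.39. The median distance to the nearest start was 33.6 kb. The median ratio was 0.36 at 1 to 5 kb, 0.41 at 5 to 20 kb, 0.41 at 20 to 100 kb, 0.55 at 100 to 500 kb and 0.82 in the 2021 members beyond 500 kb, of which 41.1% were at least 2-fold higher. Other distal regions beyond 500 kb had a median of 0.28, so that the gap there was wider than at 1 to 5 kb, where the medians were 0.36 and -0.0040. The remote members also held fewer CpG, with a mean of 1.05 against 2.25 at 1 to 5 kb, and fewer counts, with a WT median of 45 against 103. The 200 members just outside the 1 kb threshold had a median of 0.32, and the 200 regions with the consensus just within it 0.39.

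The members had 11479 nearest protein-coding genes, where nearest means the closest start and not a gene shown to be regulated. *Auts2* had 52 members with a median log2 ratio of 0.60, of which 11 were at least 2-fold higher and 3 lower. *Efna5*, an ephrin ligand of axon guidance, had 51 with a median of 0.25. *Adgrl2*, an adhesion receptor, had 48 with 0.34. *Pde4d*, a cAMP phosphodiesterase, *Tenm4*, a teneurin adhesion protein, and *Zeb2*, a zinc finger repressor, had 43 each with medians of 0.59, 0.69 and 0.39. *Myc*, the growth regulator, and *Tenm3* had 42 each with 0.31 and 0.45, the splicing factor *Rbfox1* 41 with 0.61 and the RNA-binding protein *Celf4* 40 with 0.59. Members of all 10 exceeded the other distal regions near the same gene, whose medians ran from -0.15 to 0.21.

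This held for most genes. Of 469 genes with at least 15 members, 462 had a higher median in their members than in the other distal regions nearest to them. The members' median was above 0 in 460 of them with the total-count factor and in 168 with the peak caller factor. Among the highest medians were those of *Luzp2* (1.46, 19 members, 14 at least 2-fold higher), *4931408C20Rik* (1.37, 16 members, 11 higher), *Cdh18*, a cadherin (1.31, 25 members, 16 higher) and *Sel1l*, a factor of protein degradation in the endoplasmic reticulum (1.24, 25 members, 15 higher). None of the members of these 4 genes was at least 2-fold lower. The other distal regions nearest to these 4 genes had medians of 0.42 to 0.71, against 0.02 over all other distal regions. The lowest medians were those of *Sept9*, a septin (-0.21, 16 members), *Cmip* (-0.20, 17), *Gse1* (-0.19, 15), *Trabd2b*, an inhibitor of Wnt ligands (-0.17, 18), and *Mtx2*, a mitochondrial import protein (-0.10, 17), of whose members 2 were higher and 1 lower.

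Lists of genes were then described by their members, beside the 22.6% higher and 1.31% lower of all members. The osteoblast genes had 120 members at 15 of 18 genes, with a median of 0.37, 28 higher and 1 lower. The other distal regions of these genes had a median of -0.09, with 6.98% higher and 8.46% lower. Members near *Runx2*, the master regulator of osteoblasts, numbered 25 with a median of 0.36, of which 4 were higher and 0 lower. *Mef2c* had 20 with 0.49 and 6 higher, *Postn*, the matrix protein periostin, 11 with 0.60 and 5 higher, and *Alpl*, alkaline phosphatase, 5 with 0.58 and none past 2-fold. *Sp7* had 2 members with a median of -0.32 and *Dmp1* 1 with -0.44. The member with most counts near *Runx2* lay in its intron (chr17:44500192-44500979) and held 1849 WT and 1289 TCKO counts, a log2 ratio of 0.20. That upstream of *Col1a1*, the chain of collagen I (chr11:94869791-94870593), held 1331 and 694, a ratio of -0.22, and that upstream of *Ibsp*, bone sialoprotein (chr5:104251703-104252344), held 763 and 643, a ratio of 0.47. The one near *Phex*, a phosphate regulator with 3 sites and no CpG, held 908 and 607, a ratio of 0.14. These 4 members were all within 2-fold.

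The AP-1 factor genes themselves had 33 members at 9 of 12 genes, with a median of 0.24, 2 higher and 0 lower. *Jun* had 13 with a median of 0.34, and its member with most counts held 617 and 476, a ratio of 0.34. The corresponding members of *Fos* held 629 and 437 (0.19), of *Fosb* 772 and 475 (0.02) and of *Atf3* 581 and 446 (0.34). At the starts of all 12 genes regions were present, with sums of 23215 WT and 12475 TCKO counts and a ratio of -0.18.

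Genes of matrix remodelling and of cytokines include textbook AP-1 targets. Matrix remodelling genes had 46 members with a median of 0.11, of which 10 were higher and 1 lower. Both members near *Mmp10*, a stromelysin, were at least 2-fold higher and the only one near *Mmp3* as well (80 and 100 counts), while *Plaur*, the urokinase receptor, had 2 members with a median of -0.18. The cytokine and stress genes had 52 members with a median of 0.45, 10 higher and 1 lower. The 8 members near *Ptgs2*, cyclooxygenase 2, included 4 higher, with a median of 0.73, and the 6 near *Il6* had a median of 0.66 with 1 higher. The member with most counts upstream of *Csf1*, the growth factor of macrophages and osteoclasts (chr3:107810570-107811325), held 1472 and 443 counts, a ratio of -1.01, and was the 1 lower member of this list. TGF-beta and YAP-TEAD target genes had 88 members with a median of 0.23, 8 higher and 2 lower, and *Ccn2* and *Smad7*, induced by these pathways, had medians of -0.21 and -0.39 over 10 members each.

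The chondrocyte genes had 116 members with a median of 0.21, 18 higher and 2 lower, of which 40 lay near *Sox9*, with a median of 0.28. The axon guidance genes had 268 members at all 17 genes, with a median of 0.48, 68 higher and 6 lower. Among them the repellent *Slit2* had 14 members with a median of 0.94 and 6 higher, the receptor *Plxna2* 20 with 0.86 and 8 higher, *Sema3a* 13 with 0.81 and 4 higher, *Epha4* 24 with 0.50 and 8 higher, and *Slit3* 26 with 0.24 and 2 higher. In all 10 lists the members' median exceeded that of the other distal regions of the same genes, and with the peak caller factor the members' medians of all 10 lists were below 0.

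**Figure D5:**
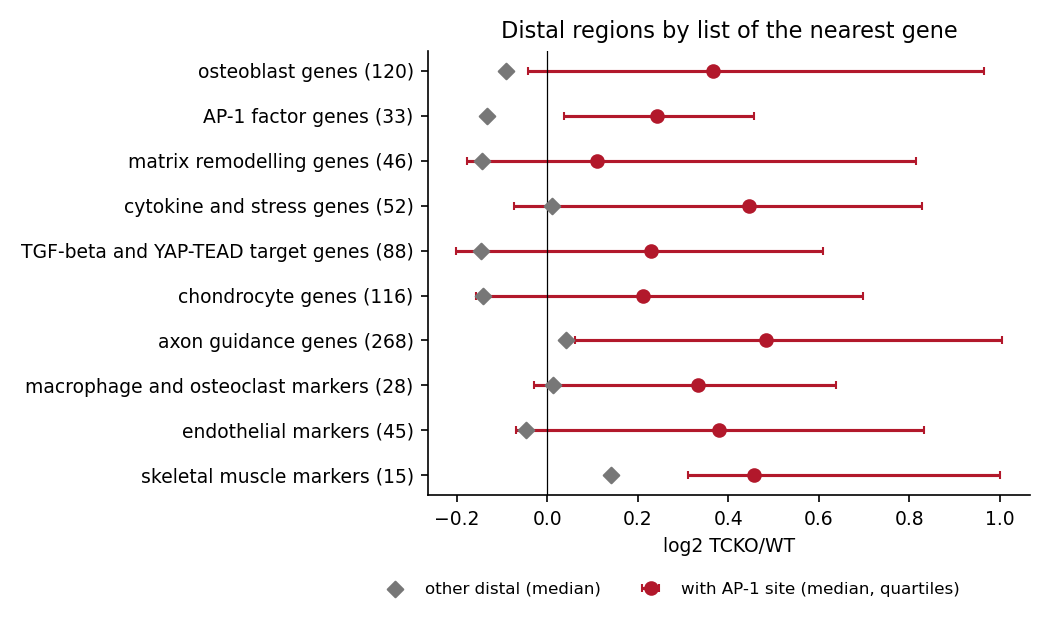
Median log2 ratio of TCKO to WT scaled by total count (horizontal axis) of the members whose nearest gene is in each list, with bars from the lower to the upper quartile and the number of members in brackets, and of the other distal regions of the same genes (diamonds). Members lie to the right of the other regions in all 10 lists, and with the peak caller factor the members' medians are below 0 in all 10.

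Markers of other cell types were examined beside these lists. Of the osteoblast genes 17 of 18 had an accessible region within 1 kb of a start, with sums of 17630 WT and 10050 TCKO counts and a ratio of -0.09. Macrophage and osteoclast markers had such a region at 7 of 11 genes (2443 and 1225 counts, -0.28), with none at *Ptprc*, *Mrc1*, *Cx3cr1* and *Itgam*. Endothelial markers had it at 5 of 7 genes (1606 and 984 counts, 0.01), with none at *Emcn* and *Tie1*, and muscle markers at 3 of 8 (833 and 478 counts, -0.08), with none at *Myod1*, *Myog*, *Myf5*, *Myf6* and *Pax7*. Members near these markers numbered 28, 45 and 15, with medians of 0.33, 0.38 and 0.46. Among those with most counts, the member in an intron of *Pecam1* held 406 and 615 counts, a ratio of 1.31, and that in an intron of *Erg* 1159 and 375, a ratio of -0.91. In merged cells a different share of cells of a type and a different accessibility per cell cannot be told apart.

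Single members were ranked among the 10342 that reached 200 counts in either genotype, of which 674 (6.52%) were at least 2-fold higher and 149 (1.44%) lower. Over all 68039 regions that passed the same minimum the shares were 2.57% and 3.99%. The highest ratio was in an intron of *Rasal2*, a Ras GTPase activator (chr1:157392861-157393581), which held 0 WT and 261 TCKO counts. Against a floor of 3 WT counts it was at least 143-fold higher with the total-count factor and at least 93.8-fold higher with the peak caller factor. The lower bound of its interval, which also holds the counting error of TCKO, was 6.80 on the log2 scale with the total-count factor. The lowest local background of the WT peak list was 0.020 reads per bp, so 0 WT counts over this width lie below background. These are thus folds of counts, and whether WT reads could be mapped to this region was not tested. The member in an intron of *Spock3*, a proteoglycan, held 112 and 616 counts, a ratio of 3.17 (2.89 to 3.47). The region upstream of *Nkain2* held 82 and 417 counts, a ratio of 3.05 (2.72 to 3.40). The intronic member of *Grm8*, a glutamate receptor, held 64 and 253 counts, a ratio of 2.68 (2.31 to 3.09). That of *Rgs6*, a regulator of G protein signalling, held 82 and 294, a ratio of 2.54 (2.21 to 2.91). These 5 members each had 1 site and from 0 to 2 CpG in their central 200 bp. All 5 passed the minimum of 200 counts through their TCKO counts alone.

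The lowest ratio was in an intron of *Hnrnpll*, a splicing regulator, which held 210 WT and 26 TCKO counts, a ratio of -2.27 (-2.88 to -1.71). The region upstream of *Tln2*, a talin, held 212 and 36, a ratio of -1.82 (-2.35 to -1.33). Low ratios were also found near *Smlr1*, with 466 and 82 counts and a ratio of -1.78 (-2.13 to -1.45), and near *Epha7*, an ephrin receptor, with 358 and 68 counts and a ratio of -1.67 (-2.05 to -1.31). Of these 68039 regions of any kind, 15.2% were members. Members made up 36 of the 100 regions with the highest ratios and 3 of the 100 with the lowest, and 198 and 17 of the 500 at each end. These numbers carry the same minimum on counts before scaling, which a region can pass through the genotype where it is high alone.

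The members with most WT counts had ratios from -0.34 to -0.05, all within 2-fold and all below 0, and 4 of their 5 intervals did not reach 0. They were chosen by WT counts, the denominator of the ratio, which favours low ratios. Their sign and intervals are therefore no test. With the peak caller factor these ratios would lie lower by 0.61. The region upstream of *Ahnak*, a large scaffold protein (chr19:8982446-8983718), held 5530 WT and 3253 TCKO counts, a ratio of -0.05 (-0.11 to 0.01). An intron of *Camk2d*, a calcium-dependent kinase (chr3:126831382-126832021), held 4454 and 2540, a ratio of -0.09 (-0.16 to -0.02). An intron of *Anxa2*, an annexin (chr9:69457507-69458572), held 4041 and 1968, a ratio of -0.32 (-0.40 to -0.24). The members near *Cxxc5* and in *Spire1* had ratios of -0.17 and -0.34. Over the 5 depth classes the members' medians were 0.50, 0.64, 0.57, 0.42 and 0.16 from the lowest to the highest, against -0.06, 0.13, 0.08, 0.02 and -0.07 in other distal regions, so that the gap was narrowest in the class with most counts.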

How the data were processed

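ATAC-seq counts, the only values behind the ratios, were deposited by the authors as 1 whole-number count per region and genotype after they had merged the replicates of each genotype. The authors aligned unique reads end to end with STAR 2.7.0e to GRCm38 and called summits with MACS2, per the labels and the study's methods. Removal of duplicates, a shift of read ends for Tn5 and the use of strand are not given in the sources used here, and duplicates or unshifted ends can change counts and move summits by a few bases. The peak lists deposited by the authors, 1 per genotype on merged reads, give the fold enrichment at each summit as a linear ratio and its p-value as −log10 p. The lists' q-values and scores were not used.

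The sequence of each region was read from the RefSeq FASTA of GRCm38, and gene starts were taken from GENCODE M21 on the same build. A region was distal when its midpoint lay over 1 kb from every start of a protein-coding gene, counting all its transcripts. Sites were counted on both strands of the central 200 bp, which reaches past the ends of regions narrower than that. The TCKO count was scaled to the WT total, 1 was added to each count, and a fold of 2 was the call. With 1 merged column per genotype no test, no pairing and no replicate check was possible. Alternatives were TMM (edgeR 4.0.16) and DESeq2 1.42.0 size factors in R 4.3.3, no scaling, a depth from the lowest local background of the peak lists, loess (span 0.3), 20 GC bins, other counts, folds, distances and search windows. Python 3.11.15 with pandas 2.3.3, numpy 2.4.6, scipy 1.17.1 and statsmodels 0.14.6 was used, and the scripts were tested on simulated data. The members, the gene lists and the tests were chosen with earlier results of these data known. The pooled CpG-edged word, the reordered word and the use of protein-coding transcripts alone for starts were added after the data had been seen.

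The regions named are the 5 highest, the 5 lowest and the 5 with most WT counts, the first 2 sets among members with at least 200 counts in either genotype, and the 5 with most sites. The genes named are the 10 nearest to most members, the 5 highest and 5 lowest medians among genes with at least 15 members, and the lists' genes with, for up to 4 genes per list, the member with most WT counts. A choice by WT counts favours low ratios. The CpG-edged regions named follow the first of these rules. Genes within the lists were picked as examples after their values had been seen. Sequences were printed only for intronic and intergenic regions. A few items that these rules name are not reported here.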

Additional observations from a re-analysis of the deposited data

How the results depend on the processing

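No paired analysis was possible because only 1 merged column per genotype was given, and no replicate could be left out for the same reason. The members' median exceeded that of other distal regions under all 14 alternatives, by 0.40 with the GC trend removed, 0.42 with at least 50 counts, 0.39 with 10 counts added, 0.44 over 10 kb from starts, 0.35 with the whole region searched and 0.44 in the central 100 bp, and by 0.43 in the other 8. The number of members at least 2-fold higher was 10279, and 2354 without scaling, 3012 with the peak caller factor, 19168 at a fold of 1.5, 3112 at a fold of 3 and 3215 with the interval wholly past 2-fold. The number lower was 598, and 5444 without scaling, 3975 with the peak caller factor, 1036 with loess removed, 359 with 10 counts added, 338 in the central 100 bp, 2301 at a fold of 1.5, 81 at a fold of 3 and 73 with the interval wholly past 2-fold. The excess of 2 or more sites over 1 site was 0.18, and 0.044 with the whole region searched and 0.46, 0.25, 0.27 and 0.26 in the 4 lower depth classes, and it moved less in the other 14. The excess of no CpG over 5 to 7 CpG was 0.50, and 0.44 with loess removed. No value reversed its sign under the alternatives tried for these differences. TMM, DESeq2 size factors, no scaling and the peak caller factor change the factor alone. They could hardly move a difference of medians, so they are no check of it. Which scaling fits these libraries was not tested, so a ratio above 0 and a 2-fold count hold for the factor they are given with.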

Other observations

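Regions within 1 kb of a start that held the consensus were few (2086), and their median log2 ratio was 0.24, with 14.2% at least 2-fold higher in TCKO and 1.05% lower. The 25530 regions within 1 kb of a start and without it had a median of -0.07, with 2.98% higher and 1.76% lower. The gap between these groups, with the site and without it, was thus of the same sign as that between distal regions. Both groups also differed in CpG content, with means of 4.27 and 11.8 in the central 200 bp, and in WT counts, with medians of 124 and 338.

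When each region inside a gene was given to that gene in place of the nearest start, *Gm20388* held most members (63, median 0.20), followed by *Macrod2* and *Pde4d* with 39 each and *Auts2* and *Dlg2* with 37 each.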
